A study of Mus musculus with 12 samples.

Results

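The 9 genes described here, Pf4, Ppbp, Gp9, Gp1bb, Gp5, Gp6, Treml1, Plek and Nfe2, are transcripts of megakaryocytes and of the platelets they shed. They were taken by symbol from a deposited table of 33531 genes, in which all 9 were present, and 8 of them passed the filter on low values (Gp6 did not). Cells of the large arteries (aorta, umbilical, vitelline) were pooled from 122 mouse embryos at embryonic day 11.5 and sorted into 4 populations, each profiled by RNA-seq in 3 pools that the labels call independent biological samples. Hematopoietic cluster cells (HC), which carried CD31, CD144, ESAM and c-Kit, gave 53000 cells positive and 413000 cells negative for a Ly6a-GFP reporter. Endothelial cells (EC), which carried the same antigens except c-Kit, gave 377000 GFP+ and 791000 GFP− cells. All embryos were of the B6129S background and carried the Ly6a-GFP transgene from their fathers, the mothers being C57BL/6 x 129S1/SVImJ F1 females, so the GFP− cells carry the transgene too. The labels name no platelet antigen among the sort markers and do not give the number of cells in each pool.

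Platelets are anucleate fragments of megakaryocytes that hold megakaryocyte RNA, stored chemokines and a set of surface receptors for damaged vessel walls. The GPIb-IX-V complex, built from the products of Gp1ba, Gp1bb, Gp9 and Gp5, binds von Willebrand factor, and glycoprotein VI, the product of Gp6, binds collagen. Megakaryocytes and platelets are present in the mid-gestation embryo. The transcription factor NF-E2, whose hematopoietic subunit is encoded by Nfe2, is needed for platelet release.

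Promoter sequence in GRCm38.p6 was found for 8 of the 9 members in a RefSeq table, all except Nfe2. The upstream 250 bases of 4 members are shown 5′ to 3′ on the strand of the gene, ending 1 base before the annotated start. Capitals mark GATAA or its reverse complement TTATC, core letters read by GATA factors, a family that includes a master regulator of megakaryocyte genes. The first is Gp9 at chr6:87777820-87778069 on the plus strand, followed by Gp5 at chr16:30310782-30311031 on the minus strand, Gp6 at chr7:4397745-4397994 on the minus strand, and Ppbp at chr5:90768268-90768517 on the plus strand.
Gp9: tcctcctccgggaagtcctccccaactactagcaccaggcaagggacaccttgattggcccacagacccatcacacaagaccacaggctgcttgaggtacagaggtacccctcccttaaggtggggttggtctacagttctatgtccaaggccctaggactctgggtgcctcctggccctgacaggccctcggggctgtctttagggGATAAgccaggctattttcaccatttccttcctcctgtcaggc
Gp5: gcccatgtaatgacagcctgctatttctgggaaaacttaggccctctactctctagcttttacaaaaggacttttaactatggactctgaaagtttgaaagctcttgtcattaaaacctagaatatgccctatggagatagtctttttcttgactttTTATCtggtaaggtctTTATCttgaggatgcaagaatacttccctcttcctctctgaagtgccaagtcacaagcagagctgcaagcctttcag
Gp6: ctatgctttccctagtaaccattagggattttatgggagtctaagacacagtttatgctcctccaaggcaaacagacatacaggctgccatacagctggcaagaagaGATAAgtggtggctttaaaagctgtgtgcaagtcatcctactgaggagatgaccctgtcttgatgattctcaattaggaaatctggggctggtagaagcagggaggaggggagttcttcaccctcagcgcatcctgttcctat
Ppbp: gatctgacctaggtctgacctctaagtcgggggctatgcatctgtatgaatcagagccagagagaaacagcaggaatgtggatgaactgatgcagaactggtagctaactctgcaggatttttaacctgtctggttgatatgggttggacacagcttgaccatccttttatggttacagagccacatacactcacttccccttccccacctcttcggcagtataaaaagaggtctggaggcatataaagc
In windows of 300 bases (250 before to 50 after the start), GATAA or TTATC stood in 5 of the 8 member windows, against 25.4% of 32851 windows in the table. Counted from the annotated start, the matches began at −43 in Gp9, −93 and −77 in Gp5 and −143 in Gp6. Those in Plek and Pf4 began at −196 and 38. The windows of Ppbp, Gp1bb and Treml1 held none. GGAAG or CTTCC, the core letters of ETS factors, stood in 7 of the 8 windows (all but Plek), against 71.4% of all windows. TGAGTCA or TGACTCA, letters that NF-E2 reads, stood in 0 of the 8, against 5.2% of all windows. These matches are letters in a fixed window, and no binding was measured.

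Levels are given as FPKM, which is per transcript length, so members can be compared with one another. The FPKM of a library summed to 555675 to 691948, and 12147 to 12779 genes were at 1 or more. Ly6a, the gene the reporter stands for, was at 3.57 to 7.09 in the HC GFP+ and 8.42 to 9.05 in the EC GFP+ libraries, against 0.0538 to 1.47 in the 6 GFP− libraries, so every library followed its GFP label. The 6 endothelial genes listed as markers summed to 1376 to 2371 FPKM in EC and to 1170 to 1617 in HC libraries. The deposited values give no read numbers, so the depth behind each value is unknown.

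Pf4 encodes platelet factor 4, a chemokine stored in platelet granules, and was the most abundant member in every library. Its FPKM was 129, 68.6 and 245 in the 3 HC GFP+ libraries (replicates 1, 2 and 3, the order kept throughout) and 201, 84.7 and 153 in HC GFP−. It was 38.5, 10.7 and 136 in EC GFP+ and 89.8, 56.2 and 195 in EC GFP−. The populations overlapped, with means in the order HC GFP+ (147 ± 89.7, SD, n = 3), HC GFP− (146 ± 58.2), EC GFP− (114 ± 72.5) and EC GFP+ (61.6 ± 65.6), and no neighbours in that order differed beyond their spread. In bulk samples such as these, fewer cells of a type and less RNA per cell cannot be told apart.

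Ppbp, the neighbour of Pf4 on chromosome 5, encodes pro-platelet basic protein, the precursor of a neutrophil chemoattractant. Its FPKM was 12.8, 17.9 and 13.7 in HC GFP+ and 15.1, 7.27 and 6.50 in HC GFP−. It was 18.8, 4.44 and 56.3 in EC GFP+ and 27.2, 14.8 and 48.4 in EC GFP−. Unlike Pf4, it had its highest values in EC libraries, and its means ran from EC GFP− (30.1 ± 17.0) and EC GFP+ (26.5 ± 26.8) to HC GFP+ (14.8 ± 2.71) and HC GFP− (9.63 ± 4.77). All neighbours in that order overlapped.

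Gp9 encodes glycoprotein IX, the small subunit that the GPIb-IX-V complex needs to reach the surface. Its FPKM was 4.51, 5.64 and 4.30 in HC GFP+, 3.89, 2.71 and 2.45 in HC GFP−, 2.90, 1.02 and 12.3 in EC GFP+, and 7.48, 4.11 and 7.08 in EC GFP−. All 3 HC GFP− values lay below the lowest value of HC GFP+ and below the lowest of EC GFP−, whereas the 3 EC GFP+ libraries spanned the whole range. HC GFP− did not overlap with HC GFP+ for 23.6% of all tested genes, and with EC GFP− for 23.8%. The means were 6.22 ± 1.84 in EC GFP−, 5.40 ± 6.04 in EC GFP+, 4.82 ± 0.720 in HC GFP+ and 3.02 ± 0.763 in HC GFP−.

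Gp1bb encodes the beta chain of glycoprotein Ib. Its FPKM was 1.08, 2.39 and 0.881 in HC GFP+, 3.10, 1.98 and 0.872 in HC GFP−, 1.62, 1.21 and 7.76 in EC GFP+, and 4.86, 2.90 and 7.38 in EC GFP−. Its means ran from 5.05 ± 2.25 in EC GFP− and 3.53 ± 3.67 in EC GFP+ to 1.99 ± 1.11 in HC GFP− and 1.45 ± 0.818 in HC GFP+, with overlap between all neighbours. In RefSeq, Gp1bb overlaps the septin gene Septin5, listed as Sept5 in the deposited table, so fragments of one could be counted for the other. Sept5 was at 5.17 to 13.5 FPKM, and the ratio of Gp1bb to Sept5 ranged from 0.0887 to 0.936 over the 12 libraries, so the values of the 2 genes were not proportional. Whether part of the Gp1bb fragments came from Sept5 was not tested.

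Gp5 encodes glycoprotein V, the thrombin-cleaved member of the complex. Its FPKM was 1.03, 0.840 and 0.956 in HC GFP+, 1.16, 0.700 and 1.05 in HC GFP−, 1.41, 0.253 and 6.40 in EC GFP+, and 2.82, 0.887 and 4.84 in EC GFP−. The 6 HC libraries lay between 0.700 and 1.16, and the 6 EC libraries reached both below and above them. The ligand-binding chain of the complex, Gp1ba, was at 0.577 to 1.78 FPKM in HC and 1.04 to 4.49 in EC libraries, highest in EC GFP+ replicate 3, as were Gp9, Gp1bb and Gp5.

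Gp6 encodes the collagen receptor glycoprotein VI and had the lowest mean of all members in each of the 4 populations. Its FPKM was 0.921, 0.0462 and 0.161 in HC GFP+, 0.287, 0.267 and 0.275 in HC GFP−, 0.352, 0.247 and 2.34 in EC GFP+, and 0.606, 0.840 and 2.78 in EC GFP−. It reached 1 in only 2 libraries, replicate 3 of EC GFP+ and of EC GFP−, and was not tested. All 3 HC GFP− values lay below the lowest value of EC GFP−, which was itself under 1. Among tested genes, these 2 populations did not overlap for 23.8%.

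Treml1 encodes TLT-1, a receptor of platelet alpha-granules that appears on the surface after activation. Its FPKM was 1.77, 2.81 and 2.40 in HC GFP+, 1.73, 1.96 and 1.36 in HC GFP−, 2.05, 0.246 and 10.2 in EC GFP+, and 4.79, 1.87 and 8.12 in EC GFP−. The HC libraries stayed within 1.36 to 2.81, whereas the highest EC GFP+ library was 41.4 times the lowest.

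Plek encodes pleckstrin, a protein kinase C substrate of platelets and leukocytes. Its FPKM was 23.2, 11.2 and 30.3 in HC GFP+ and 21.6, 7.79 and 15.7 in HC GFP−. It was 3.53, 1.10 and 11.1 in EC GFP+ and 5.51, 4.37 and 10.8 in EC GFP−. Like Pf4, and unlike Ppbp and the receptor genes, it had its highest mean in HC GFP+ (21.6 ± 9.65) and its lowest in EC GFP+ (5.24 ± 5.21). These 2 populations did not overlap, as for 33.3% of all tested genes. The means of HC GFP− (15.0 ± 6.95) and EC GFP− (6.88 ± 3.42) lay between theirs, and the values of HC GFP− and EC GFP− overlapped.

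Nfe2 encodes the p45 subunit of NF-E2. Its FPKM was 11.7, 18.7 and 17.6 in HC GFP+, 4.11, 5.42 and 3.76 in HC GFP−, 3.44, 2.64 and 4.44 in EC GFP+, and 2.64, 1.95 and 6.69 in EC GFP−. The 3 HC GFP+ values lay above all 9 others. Of all tested genes, HC GFP+ did not overlap with HC GFP− for 23.6% and with EC GFP+ for 33.3%. The share of genes with HC GFP+ above all 9 others was not counted. Below HC GFP+ (16.0 ± 3.75), the means of HC GFP− (4.43 ± 0.874), EC GFP− (3.76 ± 2.56) and EC GFP+ (3.51 ± 0.899) lay close together and their values overlapped.

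**Figure D1:**
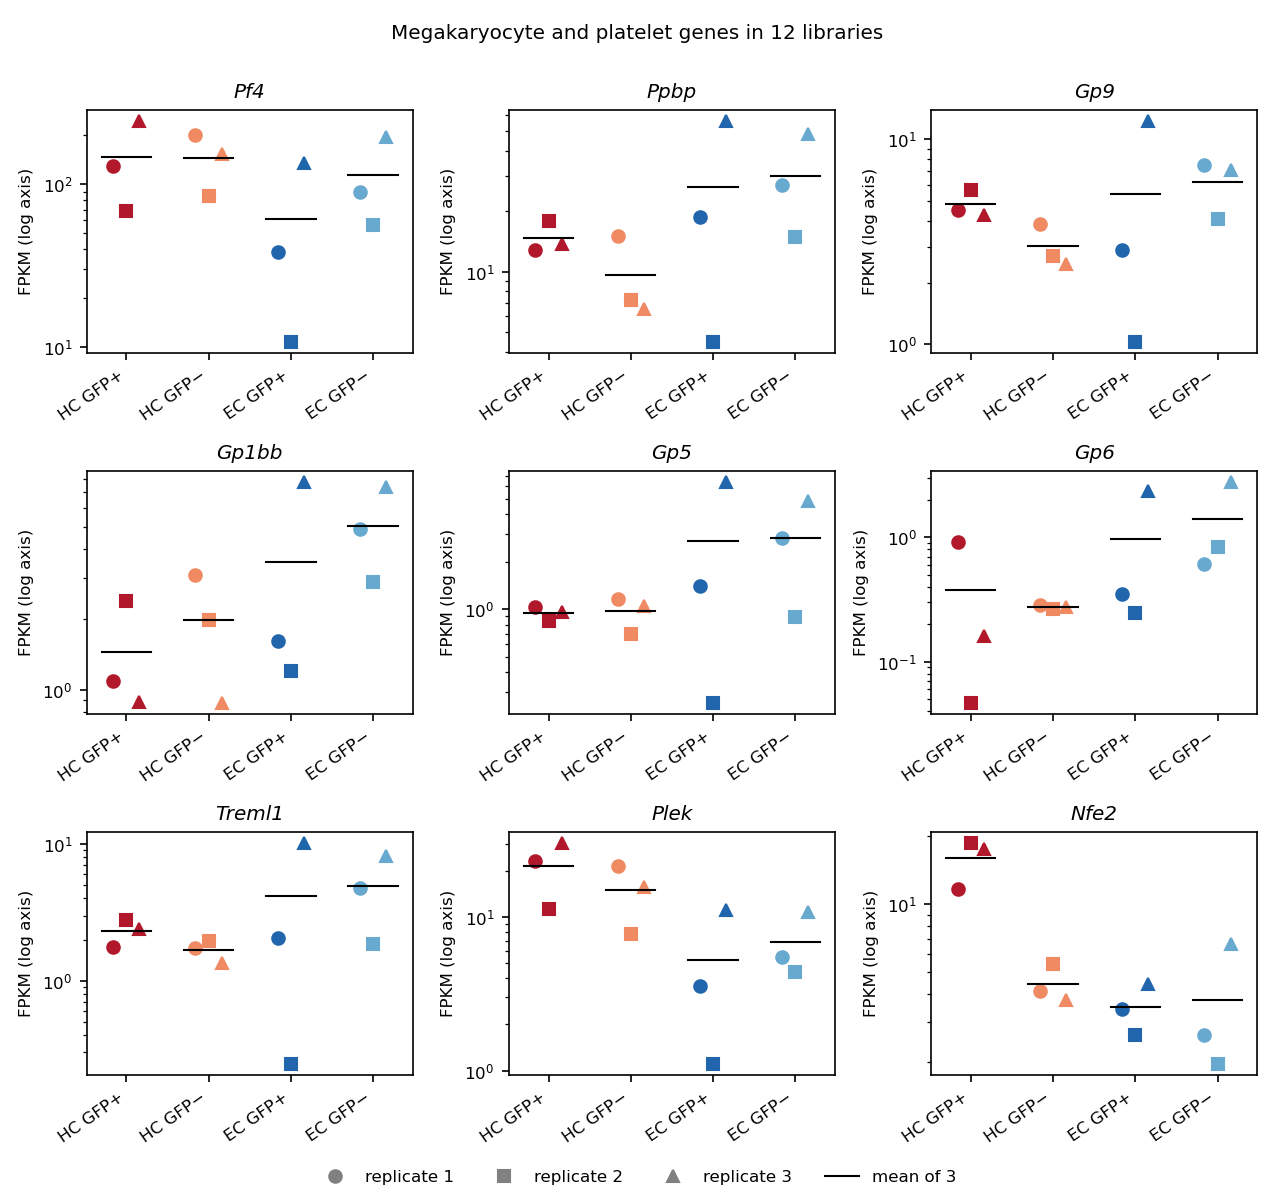
FPKM of the 9 members (log axis) in the 12 libraries, by population; markers give the replicate and bars the mean of 3. The 3 HC GFP+ libraries stand above all others for Nfe2, and EC GFP+ replicate 2 is the lowest endothelial library for every member except Nfe2.

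GFP+ against GFP− cluster cells was the first comparison, and Nfe2 was the member that changed. Its mean was 3.61 times as high in GFP+ HC, a log2 difference of 1.63 ± 0.32 (SE) on the log2(FPKM + 1) scale, with an adjusted p of 0.0144 in limma with Benjamini-Hochberg adjustment over 13278 genes. The call was 1 of 8 tested members, while 4.26% of all tested genes were called. It ended in the fits without HC GFP+ replicate 2 (1.51, adjusted p = 0.0512) or 3 (1.55, adjusted p = 0.0612) and without HC GFP− replicate 1 (1.59, adjusted p = 0.0542) or 3 (1.54, adjusted p = 0.0646).

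The other 7 tested members did not pass between the 2 cluster populations. Ppbp differed by 0.65 ± 0.70, Gp9 by 0.54 ± 0.52, Plek by 0.49 ± 0.60 and Treml1 by 0.30 ± 0.64 (log2, GFP+ minus GFP−). Pf4 differed by −0.09 ± 0.79 with a 95% interval from −1.82 to 1.65, so a change of that size in either direction remains within the error. Gp1bb differed by −0.26 ± 0.50 and Gp5 by −0.01 ± 0.55, which was 0.01 with equal library sums and 0.02 with quantile normalization. For Gp9 the groups did not overlap, as for 23.6% of all tested genes, but the interval ran from −0.60 to 1.68 and the adjusted p was 0.666. The spread that sets these intervals is shared by all 4 populations, and for the 7 tested members other than Nfe2 it was larger in EC GFP+ than in either HC population. The SD of log2(FPKM + 1) of Gp5, for example, was 0.07 in HC GFP+ and 1.29 in EC GFP+. The median difference of the 8 tested members was 0.40, beside 0.00 for all tested genes.

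Genes of other blood lineages moved in the same comparison. Of 6 listed genes of hematopoietic stem and progenitor cells, 5 were called higher in GFP+ cells and 0 lower, with summed FPKM of 93.8 to 118 in HC GFP+ and 34.8 to 35.2 in HC GFP− libraries. Of 4 tested granulocyte genes 2 were called higher, Mpo and Prtn3. For erythroid genes the summed FPKM was 836 to 1151 in HC GFP+ and 6249 to 9570 in HC GFP− libraries, with 9 of 11 called lower in GFP+ cells. The correlation of Nfe2 with the mean log2 of the erythroid genes over the 6 HC libraries was −0.92, which describes libraries that also differ in GFP. The part of progenitor, granulocyte or erythroid RNA in the Nfe2 difference was not tested.

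GFP+ against GFP− endothelium gave no call among the members. None of the 8 tested members passed limma's adjusted threshold, and 0 had an unadjusted p under 0.05, in a comparison where 13.5% of all tested genes were called. Of the 8 differences, 7 were negative (GFP+ minus GFP−), from −1.34 ± 0.79 for Pf4 (95% interval −3.08 to 0.40) to −0.30 ± 0.55 for Gp5. Gp1bb differed by −0.64 ± 0.50, Plek by −0.61 ± 0.60, Treml1 by −0.61 ± 0.64, Ppbp by −0.61 ± 0.70 and Gp9 by −0.58 ± 0.52. Nfe2 differed by 0.03 ± 0.32, with an interval from −0.67 to 0.73. The median was −0.61, beside −0.03 for all tested genes.

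This comparison turned on single libraries. Without EC GFP+ replicate 3, Gp9 was called lower in GFP+ endothelium (−1.33, adjusted p = 0.0287). Without EC GFP+ replicate 2, the differences of Ppbp (0.27), Gp9 (0.03), Gp5 (0.28) and Treml1 (0.13) were positive and not called. Leaving out EC GFP− replicate 3 also turned that of Gp5 (0.07). Erythroid genes again stood lower in GFP+ cells (9 of 11 called, with sums of 943 to 2385 in EC GFP+ and 3309 to 7643 in EC GFP− libraries), and their part was not tested.

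Among GFP+ cells, cluster cells were compared with endothelium, and Plek and Nfe2 were higher in cluster cells. Plek differed by 2.11 ± 0.60 (log2, adjusted p = 0.0374), its mean being 4.12 times as high, and Nfe2 by 1.91 ± 0.32 (adjusted p = 0.00267), its mean being 4.56 times as high. These were 2 of 8 tested members, while 14.3% of all tested genes were called. The groups did not overlap for either gene, as for 33.3% of all tested genes. The Nfe2 call held in each fit without 1 library, with adjusted p from 0.000394 to 0.0138.

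The Plek call was less stable. It ended without a filter on low values (2.11, adjusted p = 0.0789), in a fit of these 2 populations alone (2.11, adjusted p = 0.0883), and in 6 of the 12 fits without 1 library. Those were the fits without HC GFP+ replicate 1 (adjusted p = 0.105) or 3 (adjusted p = 0.122), HC GFP− replicate 3 (adjusted p = 0.0539), EC GFP+ replicate 1 (adjusted p = 0.0993) or 2 (1.50, adjusted p = 0.129), and EC GFP− replicate 1 (adjusted p = 0.0533). The difference was positive in all of them, and over all 12 fits without 1 library it lay between 1.50 and 2.77.

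Pf4 had the next largest difference between the GFP+ populations, 1.71 ± 0.79, with a 95% interval from −0.03 to 3.45 and an adjusted p of 0.186. Without EC GFP+ replicate 3 it was called (2.60, adjusted p = 0.0393). Gp9 differed by 0.30 ± 0.52 and Treml1 by −0.08 ± 0.64. Ppbp (−0.23 ± 0.70), Gp5 (−0.54 ± 0.55) and Gp1bb (−0.64 ± 0.50) had negative differences, with an interval for Gp1bb from −1.75 to 0.46. The median of the 8 was 0.11, beside 0.05 for all tested genes.

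Among GFP− cells, no member was called between cluster cells and endothelium, while 4.29% of all tested genes were. In limma, 0 of the 8 had an unadjusted p under 0.05. The receptor genes and Ppbp had negative differences (HC minus EC): Ppbp −1.49 ± 0.70 with an interval from −3.02 to 0.04, Gp1bb −1.02 ± 0.50, Treml1 −1.0 ± 0.64, Gp5 −0.83 ± 0.55 and Gp9 −0.83 ± 0.52. Plek (1.0 ± 0.60), Pf4 (0.46 ± 0.79) and Nfe2 (0.31 ± 0.32) had positive ones. Gp9 was the 1 of 8 tested members whose groups did not overlap, while this held for 23.8% of all tested genes. The median was −0.83, beside 0.01 for all tested genes.

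Macrophage genes separated cluster cells from endothelium in both GFP classes. In cluster cells all 10 listed were called higher, with GFP and without it, and their summed FPKM was 266 to 1578 in HC and 12.6 to 37.2 in EC libraries. None of the 10 was at 0 in any library. Their part in the Plek difference was not tested.

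The difference between the 2 GFP effects (that in HC minus that in EC) was positive for all 8 tested members and called for none, while 0.527% of all tested genes were called. It was largest for Nfe2 at 1.60 ± 0.45 (adjusted p = 0.161), the 1 member with an unadjusted p under 0.05. It was 1.26 ± 0.98 for Ppbp, 1.25 ± 1.12 for Pf4, 1.12 ± 0.73 for Gp9 and 1.11 ± 0.85 for Plek. The test of whether the GFP effect on Nfe2 differed between the cell types therefore did not pass after adjustment. The median was 1.11, beside 0.04 for all tested genes, and the members share the libraries that set its sign.

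**Figure D2:**
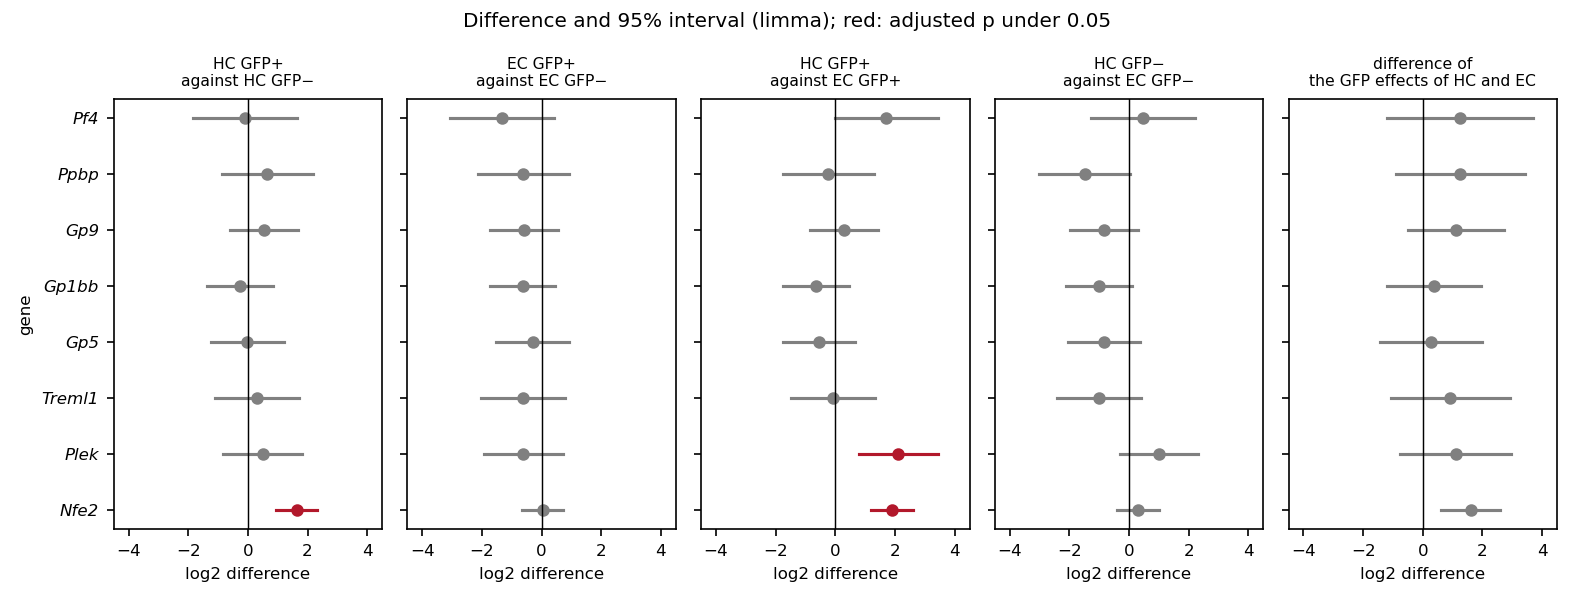
Log2 differences of the 8 tested members in the 5 comparisons, with 95% intervals from limma; red marks an adjusted p under 0.05. Nfe2 passes in both comparisons of HC GFP+, Plek in HC GFP+ against EC GFP+, and most other intervals span 0 widely.

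Within populations, the members varied far more between replicate pools than most genes. The within-population SD of log2(FPKM + 1), pooled over the 4 populations, was 1.14 for Pf4, 1.0 for Ppbp, 0.91 for Treml1, 0.86 for Plek, 0.77 for Gp5, 0.74 for Gp9, 0.71 for Gp1bb and 0.44 for Nfe2. The median over all tested genes was 0.18, and the members stood at the 89.7th to 99th percentile. Some genes of other cell types varied as widely between the same pools. The widest of the listed macrophage genes was C1qb, a complement gene (SD 1.03), and of the mesenchymal genes Col1a1, a collagen gene (0.90). They stood at the 98.8th and 98.5th percentile. The narrowest of those lists were Lyz2 (0.57) and Pdgfrb (0.50), while the endothelial genes ranged from 0.14 (Pecam1) to 0.20 (Tek). The part of other cell types in the spread of the members was not tested.

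For all members except Gp6 and Nfe2 the ratio of the highest to the lowest library was largest in EC GFP+. There it was 12.7 for Pf4, 12.7 for Ppbp, 12 for Gp9, 25.2 for Gp5 and 10.1 for Plek. For Nfe2 it was 1.68 in EC GFP+ and 3.42 in EC GFP−, and for Gp6, a gene near the lower end of the scale, 9.47 in EC GFP+ and 19.9 in HC GFP+. Summed over the 9 members, FPKM was 72.6, 21.8 and 246 in EC GFP+ and 146, 88.0 and 291 in EC GFP−, while the HC libraries lay between 113 and 315. In this sum, to which Pf4 added the most in every library, the lowest endothelial pool held less than any cluster pool. The highest endothelial pools were within the range of the cluster pools in the sum. Gene by gene, the highest EC library lay above every HC library for Ppbp (56.3 against at most 17.9 FPKM), Gp9, Gp1bb, Gp5, Gp6 and Treml1. For Pf4 (195 against 245), Plek and Nfe2 it lay below the highest HC library.

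The order of the endothelial libraries was nearly the same from gene to gene. EC GFP+ replicate 2 was the lowest of the 6 EC libraries for 8 of 9 members (all but Nfe2), replicates 3 of EC GFP+ and EC GFP− were the highest pair for 8 of 9 (all but Gp9), and both held for 7 of 9, or 77.8%. Both held for 12 of 42 other megakaryocyte and platelet genes in the table (28.6%) and for 242 of 13278 tested genes (1.82%). It held for 2 of 10 macrophage genes, and for 0 of 11 erythroid, 0 of 6 mesenchymal and 0 of 6 endothelial genes. Taken singly, EC GFP+ replicate 2 was lowest for 14 of 42 other platelet, 6 of 10 macrophage and 4 of 6 mesenchymal genes. For erythroid, endothelial and all tested genes this was 0 of 11, 0 of 6 and 21.6%. Replicates 3 were the highest pair for 18 of 42 other platelet, 2 of 10 macrophage and 2 of 6 mesenchymal genes. For erythroid, endothelial and all tested genes that was 1 of 11, 0 of 6 and 4.94%. The joint pattern was chosen after the values were seen and is a description of these 6 libraries. The 12 other platelet genes included the integrin chains Itga2b and Itgb3 (the fibrinogen receptor), the platelet tubulin gene Tubb1, the thrombin co-receptor gene F2rl2 and Thbs1, which encodes thrombospondin-1 of alpha-granules. Tubb1, for example, was at 5.83, 1.33 and 17.0 FPKM in EC GFP+ and at 8.25, 4.68 and 18.4 in EC GFP−.

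Correlations of log2 values describe the same order. Over the 6 EC libraries, Pearson's r lay between 0.913 and 0.989 in the 21 pairs of the 7 tested members other than Nfe2, and between 0.467 and 0.739 in the 7 pairs with Nfe2. Over the 6 HC libraries the same 21 pairs ranged from −0.501 to 0.95. The points are the same libraries for every pair, and they share library composition and GFP class. Mesenchymal genes also varied among the EC pools: their summed FPKM was 265, 206 and 392 in EC GFP+ and 619, 192 and 822 in EC GFP−, and their mean log2 had an r of 0.803 with Pf4.

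**Figure D3:**
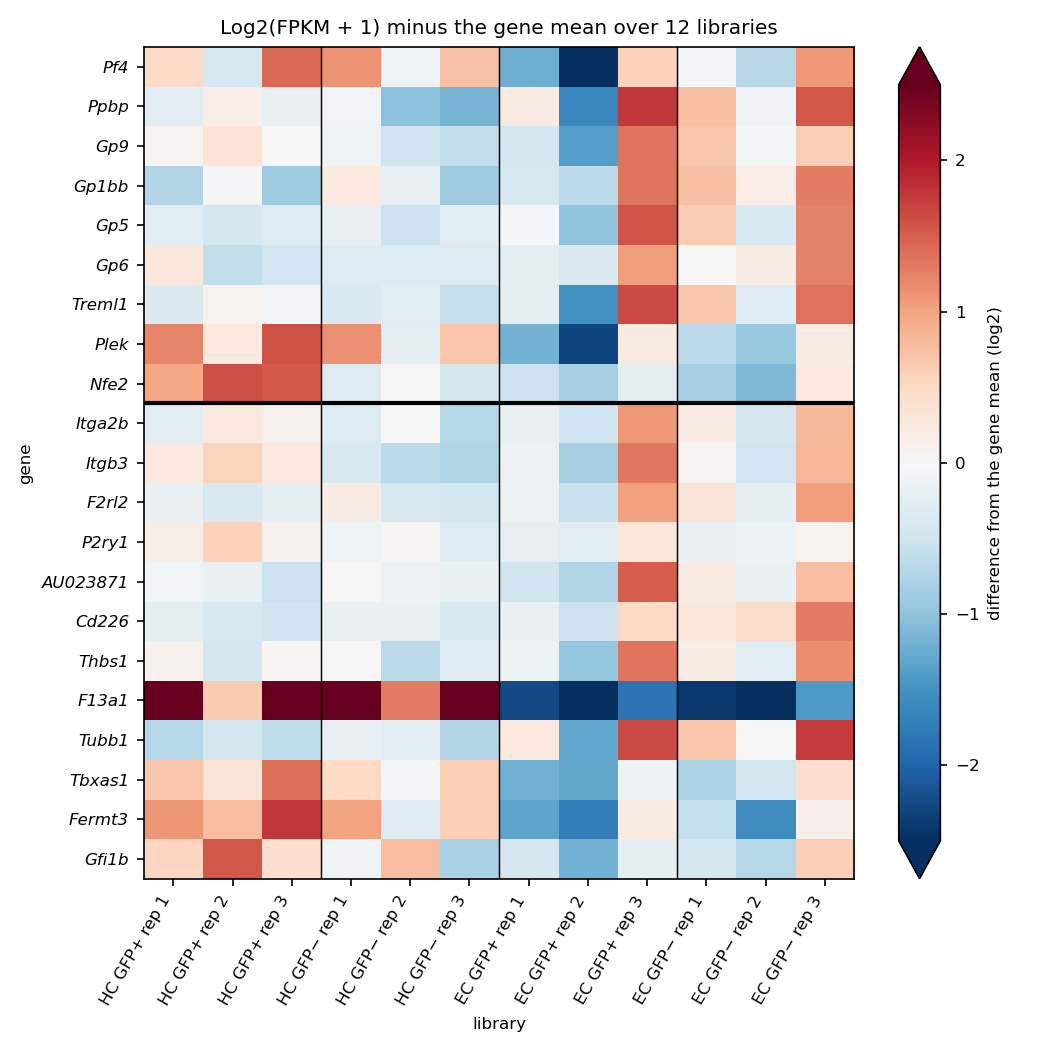
Log2(FPKM + 1) minus the mean of each gene over 12 libraries, for the 9 members (above the line) and the 12 other platelet genes with the same order of EC libraries (below it; chosen for that order). In the 6 EC columns EC GFP+ replicate 2 is mostly blue and both replicates 3 are mostly red. Values of F13a1, and that of Pf4 in EC GFP+ replicate 2, run past the colour scale.

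Pf4 and Plek kept closer proportions to Ppbp in endothelium than in cluster cells. The ratio of Pf4 to Ppbp was 2.05, 2.41 and 2.41 in EC GFP+ and 3.31, 3.80 and 4.03 in EC GFP−, although Pf4 itself varied 12.7-fold within EC GFP+. In HC it was 10.1, 3.83 and 17.9 in GFP+ and 13.3, 11.7 and 23.5 in GFP−. The ratio of Plek to Ppbp was 0.188 to 0.295 in the 6 EC and 0.627 to 2.42 in the 6 HC libraries, with no overlap. The ratio of Gp5 to Ppbp overlapped, at 0.0570 to 0.114 in EC and 0.0470 to 0.162 in HC. For Treml1, Nfe2 and Gp9 the ratio to Ppbp ranged more widely in EC than in HC. Its highest value was 3.27 times its lowest in EC and 2.36 times in HC for Treml1, 7.54 and 4.72 times for Nfe2, and 1.9 and 1.47 times for Gp9. Gp1bb and Gp6 were not set against Ppbp in this way.

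In cluster cells the members did not move together. Pf4 and Plek moved with the mean log2 of the 10 macrophage genes over the 6 HC libraries (r = 0.950 and 0.963) and not with the mean of Ppbp, Gp9, Gp1bb, Gp5 and Treml1 (r = −0.14 and 0.15). In the 6 EC libraries both moved with that platelet mean (r = 0.962 and 0.981), and their r with the macrophage mean was 0.558 and 0.698. The summed macrophage FPKM was 778, 283 and 1578 in HC GFP+ and 849, 266 and 686 in HC GFP−, and replicate 2, the lowest of each population, was also the lowest for Pf4 and for Plek. For Ppbp and Gp9, which had an r of 0.95 with each other in HC, the r with the macrophage mean was 0.177 and 0.0727. The r of Gp5 in HC was 0.714 with Pf4, 0.763 with Plek and 0.721 with the macrophage mean. With the 5-gene mean that includes Gp5, its r was 0.0737. However, Gp5 lay between 0.700 and 1.16 FPKM in HC, near the filter minimum of 1, so its r rests on small differences. For Treml1 and Gp1bb the r with the macrophage mean was −0.231 and −0.495. Gp1bb too was low in HC, at 0.872 to 3.10 FPKM. The part of macrophage RNA in the Pf4 and Plek levels was not tested.

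**Figure D4:**
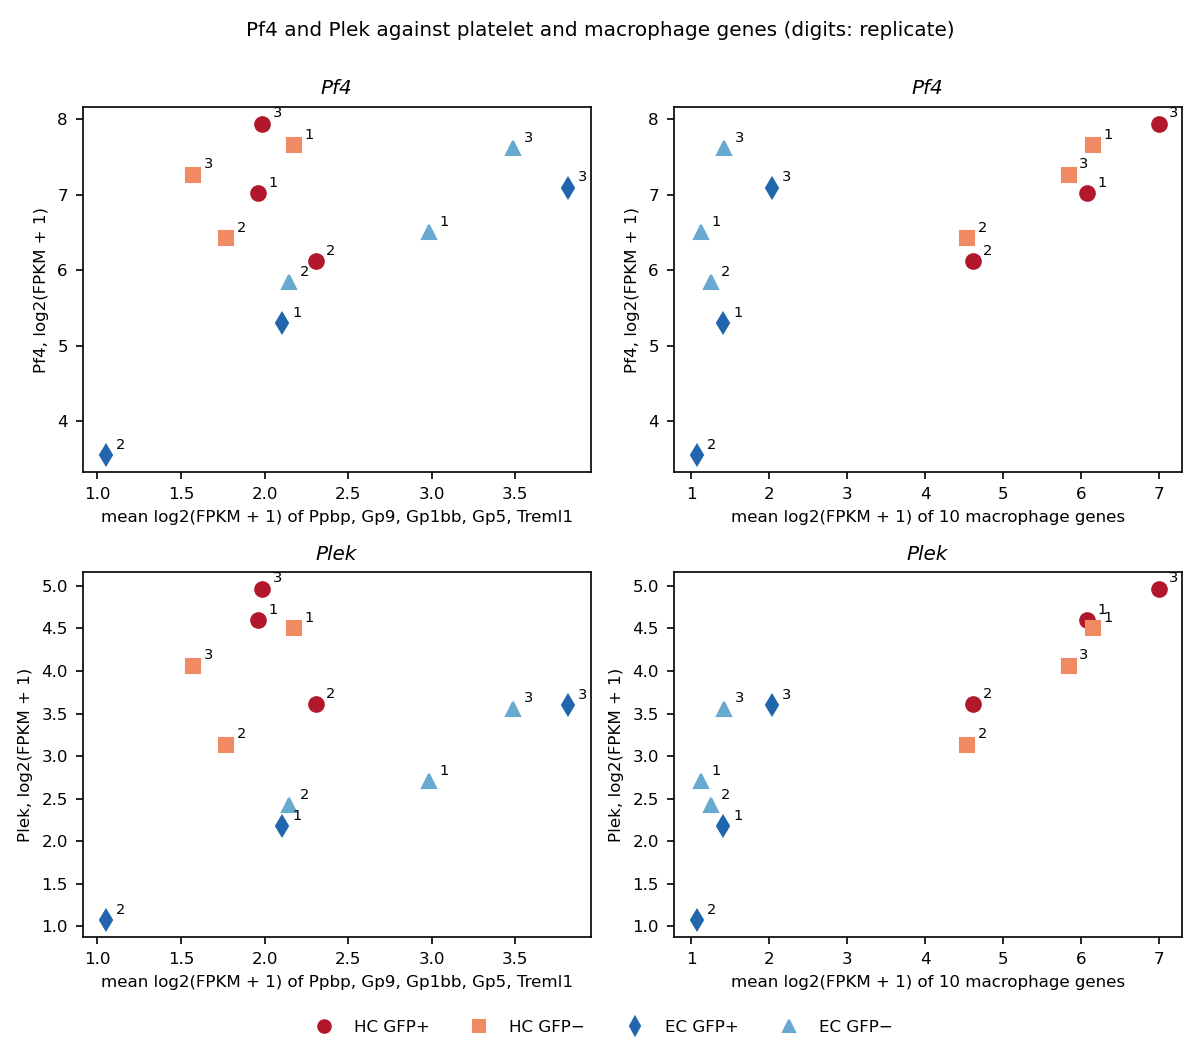
Pf4 (top) and Plek (bottom) in each library, as log2(FPKM + 1), against the mean log2 of 5 platelet genes (left) and of 10 macrophage genes (right); digits give the replicate. HC libraries line up with the macrophage mean and EC libraries with the platelet mean.

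The 3 genes whose log2 values were most like those of each member over the 12 libraries are named here as a description, without a test. Ppbp was closest to Treml1 (r = 0.943), Tubb1 (0.921) and Gp9 (0.918), and Gp9 to Treml1 (0.934), Ppbp (0.918) and Ly6g6f (0.883). Treml1 was closest to Ly6g6f (0.945), Gp5 (0.945) and Ppbp (0.943). Gp5 was closest to F2rl2 (0.960), Thbs1 (0.950) and Tubb1 (0.950), and Gp1bb to Tubb1 (0.914), Gm8817 (0.910) and F2rl2 (0.891). Plek was closest to Fermt3 (0.961), which encodes the integrin activator kindlin-3, then to Speg (0.954) and to Btk (0.949), a kinase of B cells and myeloid cells. Pf4 was closest to Zdbf2 (0.937), Pdgfrl (0.909) and Plek (0.909).

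The closest genes of Nfe2 were not members. Among its closest genes were Bcl11a (0.969), a transcription factor of hematopoietic progenitors, and Prtn3 (0.955), a protease of granulocyte precursors. Bcl11a was at 12.2, 13.6 and 13.4 FPKM in HC GFP+, against 7.24 to 7.54 in HC GFP− and 5.04 to 7.51 in EC libraries, so that, as for Nfe2, the 3 HC GFP+ libraries stood above the rest. With the mean log2 of the tested other platelet genes, Nfe2 had an r of 0.93 over the 6 HC and 0.84 over the 6 EC libraries. Its r with the other tested members over the 6 HC libraries ran from −0.263 to 0.844. The HC and EC libraries also differ in GFP.

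The listed partners and relatives of the members were measured in the same fit, and 19 of 27 were tested. In GFP+ against GFP− HC, 4 were called higher and 0 lower, which is 21.1% of those tested, against 4.26% of all genes. They were Vwf (log2 2.35), which encodes the ligand of the GPIb complex, Plcg2 (2.10) and Syk (0.76), which encode enzymes of glycoprotein VI signalling, and Treml2 (1.67), a relative of Treml1. In GFP+ against GFP− EC, 5 were higher and 1 lower (31.6%, against 13.5% of all genes). Vwf rose by 3.05, from a mean of 48.9 to 411 FPKM, and Plcg2 by 2.0, while the receptor subunits themselves were not called.

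Vwf varied little between replicates, unlike the platelet members. Its FPKM was 388, 441 and 403 in EC GFP+ and 55.2, 49.9 and 41.5 in EC GFP−. The endothelial library that was lowest for 8 of 9 members was thus the highest for Vwf. Vwf is made by endothelium as well as by megakaryocytes. The other calls in endothelium were Plek2 (1.87), a relative of Plek, Mafk (0.51), a small Maf partner of NF-E2, and Nfe2l1 (0.44), which were higher, and Lyn (−0.47), a Src-family kinase, which was lower.

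Between HC GFP+ and EC GFP+, 10 of the 19 partners were called higher and 3 lower in cluster cells (68.4%, against 14.3% of all genes). Fcer1g, the signalling chain of glycoprotein VI and of Fc receptors, differed by 4.2, with a mean of 131 ± 103 against 5.34 ± 3.57 FPKM. Trem2 (3.70), Cxcl2 (3.71), Lcp2 (2.32), Treml2 (2.15) and Syk (1.0) were also higher, and Nfe2l2, Lyn, Plcg2 and Bach1 by 0.57 or less. Plek2 (−1.46), Vwf (−1.24) and Nfe2l1 (−0.40) were lower. Among GFP− cells, Fcer1g (3.65), Trem2 (3.36) and Cxcl2 (2.99) were higher in cluster cells and no partner was lower (15.8%, against 4.29% of all genes). The partners were chosen for their ties to the members, and nothing is read from these shares. Fcer1g, Trem2 and Cxcl2 are also genes of macrophages, and that part was not tested.

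Of 42 other megakaryocyte and platelet genes in the table, 41 were tested. In GFP+ against GFP− HC, 8 were called higher and 1 lower, or 22% beside 4.26% of all genes. Those with the smallest p were Ptgs1 (log2 1.18), the platelet cyclooxygenase, Selp (1.66), which encodes P-selectin, Srgn (1.77), the proteoglycan of secretory granules, F5 (1.52), coagulation factor V, P2rx1 (1.65), an ATP-gated channel, and Nbeal2 (1.14), which is needed for alpha-granules. The 1 lower gene, named after its value was seen, was Clec1b (−0.73), which encodes the podoplanin receptor CLEC-2. Ptgs1, Selp and F5 are expressed by endothelium as well.

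In GFP+ against GFP− EC, 5 of the 41 were called higher and 2 lower, or 17.1%, close to the 13.5% of all genes. Srgn (1.79), F5 (1.30), Ptgs1 (0.76), the thrombin receptor gene F2r (0.57) and the myosin gene Myh9 (0.39) were higher, and Clec1b (−0.71) was lower. Between HC GFP+ and EC GFP+, 8 were higher and 4 lower in cluster cells, or 29.3% beside 14.3% of all genes. Among these, F13a1, the A subunit of coagulation factor XIII, which macrophages make too, differed by 4.41, with a mean of 71.2 against 1.85 FPKM. Selp (1.18) and Ptgs1 (0.75) were higher, and Alox12, the platelet 12-lipoxygenase (−1.35), and Tbxa2r, the thromboxane receptor (−1.01), were lower. Between HC GFP− and EC GFP−, where 9.76% were called beside 4.29% of all genes, 2 were higher (F13a1 by 4.58 and the ADP receptor gene P2ry12 by 1.84) and 2 lower (Alox12 by −1.20 and Tbxa2r by −0.79). None was called for the difference of the GFP effects, for which limma gave 6 with an unadjusted p under 0.05.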

How the data were processed

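Values were deposited by the authors as FPKM, the number of fragments per kilobase of transcript scaled to the mapped fragments of a library, for each gene symbol in each of 12 columns. The submitters' processing notes name the tools Cufflinks, featureCounts, edgeR and DESeq and the mm9 build, with no versions or roles. Not given in the sources used here are the aligner, the annotation, the use of strand and the scaling of libraries. Poly(A) RNA was sequenced, per the labels' protocols.

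Here, log2(FPKM + 1) was fitted with limma (version 3.58.1, R version 4.3.3), using all 12 libraries, 4 group means, 8 residual degrees of freedom and empirical Bayes with a trend. Genes needed an FPKM of at least 1 in 3 or more libraries, which left 13278 of 33531 to test. Tests were two-sided, with Benjamini-Hochberg adjustment over those genes in each comparison and a threshold of 0.05. The p-values measure the spread between pools. The fit was tested on simulated data. Alternatives were a pseudocount of 0.1, no filter, a mean FPKM of 5 or more, 3 scalings, the 2 populations alone, a replicate block and leaving out each library.

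The members and gene lists were chosen with earlier results of these data known. Named were all members, partners called or needed beside a member, up to 6 called genes of the platelet list per comparison in order of p, and the 3 genes most correlated with each tested member. A gene that these rules would name is not reported here. Correlations are Pearson's r of log2(FPKM + 1). Promoters came from RefSeq (GRCm38.p6), and the mm9 files were used without coordinates.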

Additional observations from a re-analysis of the deposited data

Results flagged for a closer look

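The GFP effect of 2 relatives of the members differed between cluster cells and endothelium in limma's test of the difference itself, with adjustment over 13278 genes. Plek2, a relative of Plek, had a GFP effect in HC that was lower than that in EC by a log2 difference of −1.97 ± 0.26 (adjusted p = 0.00861). Its FPKM was 3.59, 5.08 and 3.98 in EC GFP+ against 0.422, 0.209 and 0.642 in EC GFP−, while the 6 HC libraries lay between 0.679 and 1.21. Treml2, a relative of Treml1, had a GFP effect in HC that was higher than that in EC by 1.71 ± 0.27 (adjusted p = 0.0185). Its FPKM was 5.80, 7.54 and 7.09 in HC GFP+ against 1.64, 1.26 and 1.43 in HC GFP−, while the 6 EC libraries lay between 0.484 and 1.25. Neither Plek nor Treml1 was called for this difference.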

How the results depend on the processing

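Depth is unknown, so counting error could not be separated from the spread between pools, and the wide spread of the platelet genes in EC GFP+ limits every comparison that uses it. The 40 member differences were recomputed under 20 alternatives (772 values): 733 kept their direction and their side of the threshold, 12 lost a call, 3 gained one, and 24, in 13 of the 40 differences, changed sign, none of these being called. The causes of these changes were not tested.

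Sign changes were as follows. Treml1 in HC GFP+ against EC GFP+ was 0.28 with a pseudocount of 0.1, and Gp5 in HC GFP+ against HC GFP− was 0.0067 with equal sums and 0.016 with quantile normalization. Leaving out 1 library at a time gave, in HC GFP+ against HC GFP−, −0.54 to 0.37 for Pf4, −0.56 to 0.0030 for Gp1bb and −0.12 to 0.055 for Gp5. In EC GFP+ against EC GFP− it gave −1.43 to 0.27 for Ppbp, −1.33 to 0.030 for Gp9, −1.0 to 0.28 for Gp5, −1.45 to 0.13 for Treml1 and −0.25 to 0.44 for Nfe2. In HC GFP+ against EC GFP+ it gave −1.11 to 0.59 for Ppbp, −0.31 to 1.04 for Gp9, −1.12 to 0.16 for Gp5 and −0.82 to 0.76 for Treml1. For the difference of the GFP effects it gave −0.29 to 0.99 for Gp5.

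The number of members called ranged, without 1 library, from 0 to 1 in HC GFP+ against HC GFP− and in EC GFP+ against EC GFP−, and from 1 to 3 in HC GFP+ against EC GFP+, where it was 1 without a filter and 1 in the 2 populations alone. Of the other platelet genes, a mean FPKM of 5 or more left 4 calls in HC GFP+ against HC GFP− and 7 in HC GFP+ against EC GFP+. In HC GFP− against EC GFP− they numbered 2 without a filter, 2 in the 2 populations alone and 1 to 5 without 1 library. The difference of the GFP effects had 1 with no filter, 1 with equal sums, 1 with equal sums without hemoglobin genes and 1 with quantile normalization.

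Calls over all genes, without 1 library, ranged from 321 to 654 (HC GFP+ against HC GFP−), 1004 to 2203 (EC GFP+ against EC GFP−), 1261 to 2090 (HC GFP+ against EC GFP+), 91 to 698 (HC GFP− against EC GFP−) and 23 to 77 (difference). In HC GFP+ against HC GFP− they were 363 with a mean FPKM of 5 or more, against 566. The 2 populations alone gave 939 in EC GFP+ against EC GFP− and 284 in HC GFP− against EC GFP−, where no filter gave 332. The difference gave 39 with a pseudocount of 0.1, 39 with a mean FPKM of 5 or more, 148 with equal sums and 171 with equal sums without hemoglobin genes. Equal sums moved the median of all genes to 0.138 in EC GFP+ against EC GFP−, 0.137 in HC GFP− against EC GFP− and −0.102 for the difference, and the share of higher calls in EC GFP+ against EC GFP− from 51.6% to 87%.

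Replicate numbers recur in all populations, but the labels do not tie them to shared embryos, and over all tested genes not every same-numbered pair deviated together (r from −0.0845 to 0.27 in 18 pairs, against −0.221 to 0.218 in 36 others). Among the members, replicate 2 was the lowest library of all 4 populations for Pf4, Plek and Gp5. Replicate 2 also had the lowest mesenchymal sum in HC GFP+, HC GFP−, EC GFP+ and EC GFP− (192, 318, 206 and 192 FPKM). Its endothelial sum was the highest in each, in the same order (1598, 1617, 2371 and 1770). For the macrophage and erythroid sums, replicate 2 was not at the same end in all 4 populations. The main fit has no term for the replicate number. With a replicate block, 3 members were called in HC GFP+ against EC GFP+, Pf4 (1.71, adjusted p = 0.0228) beside Plek and Nfe2, and it changed no other member call.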
